A study of Mus musculus with 72 samples.

Results

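The genes described here are the nuclear-encoded genes of the mitochondrial respiratory chain and ATP synthase in the mouse embryonic stem cell line E14TG2a. Members were chosen by symbol (Nduf, Uqcr, Cox followed by a digit, Atp5, and Sdha to Sdhd), as protein-coding genes without pseudogene symbols. Of 51826 genes in the count files, 106 were members. There were 82 subunits, with 36 in complex I, 4 in complex II, 8 in complex III, 18 in complex IV and 16 in complex V, and 21 assembly factors, with 8 for complex I, 4 for complex II and 9 for complex IV. The other 3 members, Ndufa4l2, Cox7a2l and Atp5s, were placed in neither class, and Ndufa4 was counted with complex IV. Cells of all groups were grown in 2i + LIF and labeled with 4sU (4-thiouridine), a uridine analog. Alkylation turns its T into a C in the reads, and these T-to-C (T2C) conversions mark RNA made during labeling. Cells were extracted in sequence into cytosol, membrane (endoplasmic reticulum and mitochondria) and nucleus, beside whole cells, after 15, 20 and 30 min in replicates 1 and 2, after 20, 40 and 60 min in replicates 3 and 4, and after 60 and 120 min in replicates 5 and 6. The results rest on 64 libraries, 16 per fraction, one for each of 16 combinations of replicate and time, here called cultures. The labels give 500 µM 4sU for 15 to 40 min and 100 µM for 60 and 120 min, while the study's methods give the higher dose for 60 min in replicates 3 and 4. By the labels dose cannot be told apart from labeling time, and by the methods not from the pair of replicates. At 60 min the estimated conversion rate was 5.83% to 8.29% in libraries of replicates 3 and 4 and 2.38% to 3.99% in those of replicates 5 and 6. Which dose was given was not tested, and no library without 4sU was used here.

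Complexes I, III and IV pass electrons along the inner mitochondrial membrane and pump protons, complex II feeds in electrons from succinate without pumping, and complex V makes ATP from the proton gradient. A few core subunits are made inside mitochondria from mitochondrial DNA. All others, and the assembly factors that insert cofactors and put the complexes together, are translated from nuclear mRNA outside the mitochondria and imported, and some of these mRNAs are known to be translated next to the outer mitochondrial membrane.

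Libraries held 15382522 to 52975732 reads on genes (median 2.14e+07). Markers of the membrane and the nucleus were higher in those fractions than in the cytosol, and cytosol markers were less distinct. All 14 endoplasmic reticulum and surface markers were higher in the membrane than in the cytosol (median log2 difference 4.29), as were the 7 mitochondrially encoded mRNAs tested of 13 (median 6.80), and all 5 nuclear RNA markers were higher in the nucleus than in the cytosol (median 2.44). Of these 5, 3 were also higher in the membrane than in the cytosol (median 1.04). The 8 cytosol markers all had lower estimates in the membrane than in the cytosol (log2 -0.73 to -0.21, median -0.44, against -0.25 over all genes). Of them, 3 passed the limits for a call given below. In the nucleus over the cytosol, 6 of the 8 passed as lower (median -0.64). The 8 stem cell markers were present in every fraction, and 7 of 9 markers of other cell types had a mean under 1 CPM (counts scaled to a library of 1e+06 by the trimmed mean of M values, TMM). Some libraries stood apart. In nuclear libraries of replicate 3, the median subunit was lower than in the cytosol by more than in all other cultures at 20 min (log2 -1.95) and at 60 min (log2 -1.74), against -1.15 to 0.11 in the other 14. Whole-cell libraries of replicate 6 went against their labeled times, with a median exon share of new RNA of 0.0972 over subunits in the library labeled 60 min and 0.0423 in the library labeled 120 min (0.0569 and 0.102 in replicate 5). Levels are relative to each fraction's own total, and in such bulk libraries fewer cells and less RNA per cell cannot be told apart.

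In whole cells, levels of subunit mRNAs per length were well above those of assembly factors. The median whole-cell level was 59.8 CPM per kb of exon over 82 subunits and 8.28 CPM per kb over 21 assembly factors. Atp5b, the catalytic beta subunit of ATP synthase, had 395 CPM per kb, and Cox4i1 and Cox6a1, both subunits of cytochrome c oxidase, had 370 ± 96.0 and 363 ± 112 CPM per kb (SD, n = 16), so that these last did not differ beyond their spread. Among assembly factors the range was 0.600 (Cox16) to 26.2 CPM per kb (Cox14). Reads were counted only where they mapped to 1 place. Several members have processed pseudogene copies, so that levels of Ndufb2 (0.920 CPM per kb), Atp5l (5.61) and Cox17 (2.05) may be too low. The subunit isoforms Cox6a2, Cox7b2, Cox8b and Cox8c, known from muscle or germ cells, had mean levels of at most 0.600 CPM in every fraction and were the only members that did not pass the filter on low counts when fractions were compared. In whole cells labeled for 60 min against 20 min within replicates 3 and 4, no member of 104 tested was called by edgeR's quasi-likelihood test, and of all 16701 genes 0% were called (773 at an unadjusted p under 0.05, and 0 called by DESeq2). The log2 differences of 80 of 80 subunits were above 0 (median 0.28, all genes -0.00), against 8278 of all 16701 genes. This was not particular to subunits. Above 0 were also 84 of 91 cytosolic ribosomal protein genes (median 0.31), 75 of 77 mitochondrial ones (0.21) and 8 of 8 cytosol markers (0.19).

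The first comparison asked which members' mRNAs were held at the membrane. A member was called where the fold change passed 0.5 in absolute log2 and the adjusted p was below 0.05. Of 102 members tested, 33 were higher in the membrane than in the cytosol (32.4%, against 23.3% of all 14506 genes tested) and 2 were lower (22.0% of all genes). The median log2 difference was 0.33 over 78 subunits, -0.13 over 21 assembly factors and -0.25 over all genes. Complex IV stood highest, with 12 of 14 subunits higher (85.7%) and a median of 1.12. Without Cox6a1 and Cox4i1 the median was 1.05 and 10 of 12 were higher. Complex I followed with 14 of 36 higher (median 0.36), complex III with 2 of 8 (0.36) and complex V with 2 of 16 (0.07). In complex II none of 4 was called (-0.19), though Sdhc was called lower with the culture as a block. Over 16 fits, the reported one and 15 alternatives, 11 to 14 subunits were higher in complex IV, 13 to 22 in complex I, 1 to 5 in complex III and 0 to 6 in complex V, and 1 to 4 assembly factors were. Over the same fits, 15.0% to 26.4% of all genes were higher. Complex III had 4 without replicate 2, 3 or 4, and complex V 1 without replicate 1, in fits that also estimated the TMM scale anew. The summed level of the 5 nuclear RNA markers was 376 to 1120 CPM in the membrane and 136 to 692 CPM in the cytosol, and its part in these differences was not tested.

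Within each culture, the median of complex IV subunits was above 0 in 16 of 16 cultures (log2 0.52 to 1.66) and that of complex II subunits in 0 of 16 (-0.45 to -0.02). The median of complex V subunits lay on either side of 0, from -0.54 to 0.49. By pair of replicates, medians were first taken from ratios of mean CPM on the TMM scale of all libraries. The subunit median was 0.50 in replicates 1 and 2, 0.22 in replicates 3 and 4 and 0.29 in replicates 5 and 6. For complex IV the values were 1.31, 1.01 and 0.92, and for complex V 0.24, -0.20 and 0.09. In edgeR fits of each pair alone, with TMM estimated anew, the subunit medians were 0.65, 0.36 and 0.49. Those of complex IV were 1.46, 1.16 and 1.04, and those of complex V 0.39, -0.08 and 0.29. The scale mattered for signs near 0. The median over all genes was -0.25 with TMM, -0.15 with DESeq2's size factors and -0.49 with library size alone, and the complex V median turned to -0.17 with library size alone. Members split into 33 higher and 2 lower with TMM, 39 and 0 with DESeq2's size factors and 26 and 13 with library size alone (3386 and 3190, 3600 and 1689, and 3074 and 7107 over all genes). Relative to all genes, the subunit median was 0.58 higher in all 3 scalings and the complex IV median 1.37 higher.

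**Figure D1:**
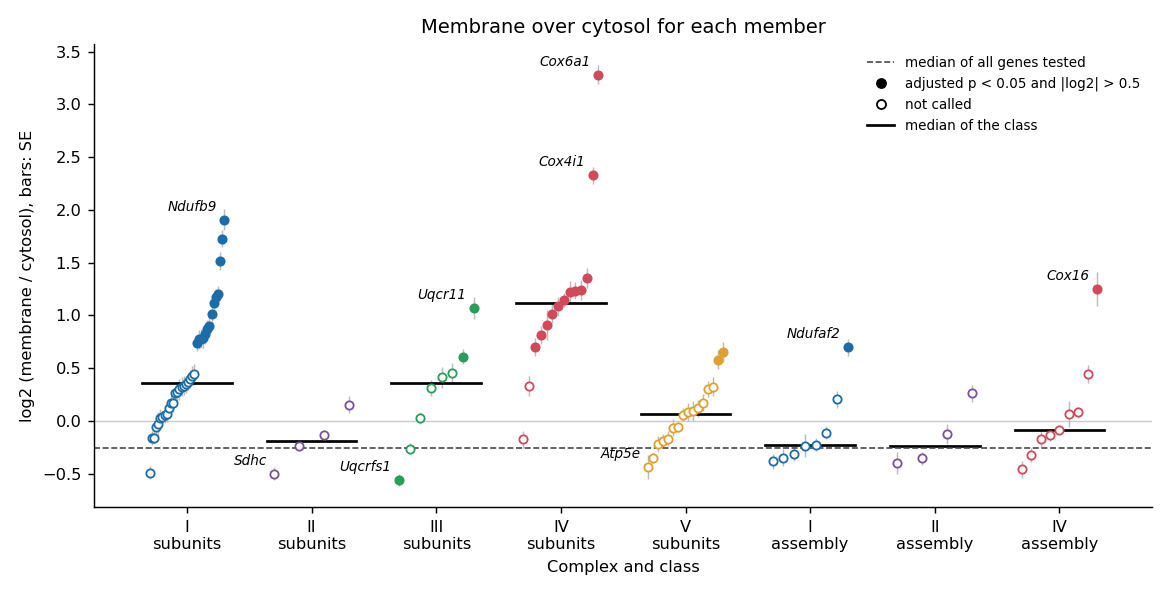
Log2 ratio of membrane over cytosol (y axis) for each member tested, by complex and class (x axis), with Ndufa4l2, Cox7a2l and Atp5s not plotted. Points are edgeR estimates with their SE over 16 against 16 libraries, filled points were called, solid lines are class medians and the dashed line is the median of all genes (-0.25). Complex IV subunits lie highest with a median of 1.12, and complex V has a median of 0.07 that is below 0 when scaled by library size alone.

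Sequences of the coding regions are shown for 9 members, since hydrophobic stretches in the encoded protein are known to direct many mRNAs to membranes. Codons with T at the second base encode the hydrophobic amino acids phenylalanine, leucine, isoleucine, methionine and valine. For each gene the 20 codons in a row that hold the most such codons were found in the Gencode coding sequence (GRCm38), and every capital T marks T at the second base of a codon. The first 5 members were higher in the membrane. They are Cox6a1 (chr5:115348634-115348693, minus strand, exon 2), Cox4i1 (chr8:120673277-120673336, plus strand, exon 4), Ndufb9 (chr15:58933838-58933897, plus strand, exon 1), Ndufa1 (chrX:37191031-37191090, minus strand, exon 1) and Cox7c (chr13:86045777-86045836, minus strand, exon 2). The last 4 were not called, with Sdhc just short of the limit. They are Atp5g1 (chr11:96073113-96073172, minus strand, exon 5), Atp5g2 (chr15:102663023-102663082, minus strand, exon 4), Atp5g3 (chr2:73908602-73908661, minus strand, exon 5), which encode the same c subunit of the ATP synthase ring, and Sdhc (chr1:171136089-171136148, minus strand, exon 5), which encodes a membrane anchor of complex II.
Cox6a1: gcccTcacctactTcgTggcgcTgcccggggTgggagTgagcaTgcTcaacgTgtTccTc
Cox4i1: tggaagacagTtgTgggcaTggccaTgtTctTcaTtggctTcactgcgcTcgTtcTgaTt
Ndufb9: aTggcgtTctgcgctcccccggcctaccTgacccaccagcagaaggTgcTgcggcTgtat
Ndufa1: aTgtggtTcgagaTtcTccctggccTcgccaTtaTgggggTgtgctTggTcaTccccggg
Cox7c: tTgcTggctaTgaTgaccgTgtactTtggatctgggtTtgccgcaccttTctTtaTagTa
Atp5g1: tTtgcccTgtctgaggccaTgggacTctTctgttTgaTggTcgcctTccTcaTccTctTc
Atp5g2: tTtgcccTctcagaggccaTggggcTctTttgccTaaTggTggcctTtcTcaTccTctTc
Atp5g3: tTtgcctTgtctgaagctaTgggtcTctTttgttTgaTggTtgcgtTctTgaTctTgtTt
Sdhc: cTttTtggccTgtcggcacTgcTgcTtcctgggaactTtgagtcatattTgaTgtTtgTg
Ndufb9, among the members highest in the membrane, held 6 such codons in its best window, and Atp5g1, Atp5g2 and Atp5g3, none of them called, held 13 each. The 3 Atp5g windows differed at 9 (Atp5g1 and Atp5g2), 12 (Atp5g1 and Atp5g3) and 17 (Atp5g2 and Atp5g3) of 60 bases, with 0 differences at a second codon position.

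Over all 12788 genes tested with a coding sequence, 8.95% reached at least 14 such codons of 20, and their median log2 difference was 2.60 against -0.30 for the rest. Of 102 members 0 reached 14, and their best windows held 5 to 13. Across genes, Spearman's rho between the number of such codons and the log2 difference was 0.46 over all 12788 genes, 0.01 over 78 subunits and 0.08 over all 102 members. By complex it was 0.47 over 14 subunits of complex IV, 0.21 over 16 of complex V, -0.28 over 8 of complex III and -0.95 over 4 of complex II. In complex I it was 0.26 over 20 subunits of the membrane arm and -0.76 over 16 of the matrix arm. With coding length, rho was -0.47 over the 78 subunits, -0.86 over the 16 subunits of the matrix arm of complex I, -0.00 over 14 subunits of complex IV and -0.00 over all genes. These describe genes of the same libraries, which are not independent replicates.

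Cox6a1, which encodes a subunit with a single membrane span at the dimer contact of cytochrome c oxidase, was the member most shifted to the membrane. Its level was 44.1 to 64.0 CPM in the cytosol (median 51.2, 16 libraries) and 313 to 833 CPM in the membrane (median 498). All membrane libraries were above all cytosolic libraries, and the difference was 9.72-fold (log2 3.28, SE 0.09, adjusted p = 4.0e-26, edgeR's quasi-likelihood test). Cox4i1 encodes the largest nuclear-encoded subunit of the complex. It was at 206 to 269 CPM in the cytosol (median 234) and 774.5 to 1585 CPM in the membrane (median 1175). Its groups did not overlap either, and the difference was 5.01-fold (log2 2.33, SE 0.08, adjusted p = 4.4e-23).

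The next 3 were accessory subunits of the membrane arm of complex I. Ndufb9 ranged from 56.6 to 91.1 CPM in the cytosol (median 65.3) and from 163 to 358 CPM in the membrane (median 253), with a 3.75-fold difference (log2 1.91, SE 0.10). Ndufa1 ranged from 21.2 to 28.7 CPM (median 25.1) and from 54.0 to 124 CPM (median 84.9), with a 3.31-fold difference (log2 1.73, SE 0.08). Ndufc2 ranged from 38.7 to 57.9 CPM (median 44.5) and from 93.0 to 182 CPM (median 130.4), with a 2.86-fold difference (log2 1.51, SE 0.08). None of the 3 had overlapping groups. Their calls, and those of Cox6a1 and Cox4i1, held in all 16 fits, the reported one and 15 with other settings or left-out replicates.

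Groups did not overlap for 16 members. The membrane was higher for 15 of 102 (14.7%), close to the 14.9% of all genes, so that the count says nothing particular of the members. It was lower for Uqcrfs1 (0.980%, against 3.14% of all genes). The 15 were 7 subunits of complex IV besides Ndufa4 (Cox4i1, Cox5b, Cox6a1, Cox6b1, Cox6c, Cox7a2 and Cox7c) and 7 of the membrane arm of complex I (Ndufa1, Ndufa3, Ndufa13, Ndufb8, Ndufb9, Ndufb11 and Ndufc2). No subunit of the matrix arm, complex II or complex V and no assembly factor was among them.

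**Figure D2:**
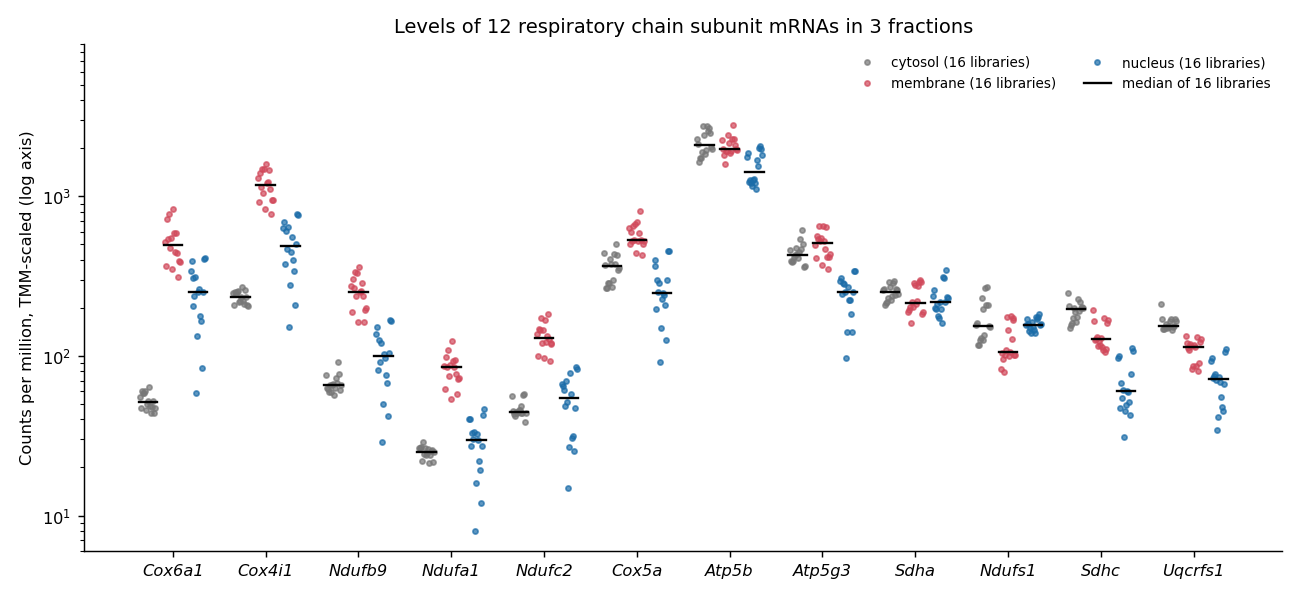
Levels of 12 subunit mRNAs in CPM (TMM-scaled, log axis) in each of 16 cytosolic, 16 membrane and 16 nuclear libraries, with black lines at the medians. Cox6a1 to Ndufc2 have membrane libraries above all cytosolic ones, Atp5b overlaps (medians 2082 and 1977 CPM), and Uqcrfs1 lies lower in the membrane (medians 154 and 114 CPM).

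At the other end, Uqcrfs1, the Rieske iron-sulfur protein of complex III, was at 145 to 211.5 CPM in the cytosol (median 154) and 80.1 to 134 CPM in the membrane (median 114). The groups did not overlap, and the log2 difference was -0.56 (SE 0.06, adjusted p = 1.1e-10). Cox7a2l, a factor of supercomplexes of complexes III and IV, was at 122 to 182 CPM (median 146) and 60.3 to 139.6 CPM (median 106.5), with overlap (log2 -0.54, SE 0.08, adjusted p = 2.5e-07). Both calls were lost with DESeq2's size factors, by which 0 members were lower, and without replicate 2, 3 or 4, and each was kept in 9 of 16 fits. Next came Sdhc (log2 -0.50), Ndufs1 (-0.49) and Cox20 (-0.46), which were not called. Sdhc was near the limit and was called lower with the culture as a block and without replicate 1, 5 or 6. It ranged from 150 to 247 CPM in the cytosol (median 196) and from 106 to 195 CPM in the membrane (median 127). Ndufs1, the large iron-sulfur subunit that takes electrons into complex I, had medians of 155 and 105.5 CPM.

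The arms of complex I were counted separately. Of 20 membrane arm subunits, 12 were higher (median 0.78), and of 16 subunits of the matrix arm, which oxidizes NADH, 2 were higher, Ndufa7 (0.82) and Ndufs4 (0.78), with a median of 0.30. The count of the matrix arm was 5, 6 and 7 without replicate 2, 3 or 4. It was 2 to 8 over 16 fits, against 11 to 14 in the membrane arm. Without replicate 2, 3 or 4 the TMM scale was also estimated anew. The median over all genes was then -0.13, -0.17 and -0.12, against -0.25 in the reported fit. Relative to all genes, the matrix arm median was 0.55, 0.56 and 0.59 in these fits, against 0.56 in the reported fit. The difference between the arms was not tested. Those not called included Ndufv1 (-0.16), Ndufs3 (-0.16), Ndufs7 (0.33) and Ndufs8 (0.35). The range of the median over 16 fits, relative to all genes, was 0.84 to 1.23 for the membrane arm and 0.34 to 0.63 for the matrix arm. In complex II, Sdha, the flavoprotein, had a log2 difference of -0.14, Sdhb, the iron-sulfur subunit, 0.15, and Sdhd, the other membrane anchor, -0.24. In complex III, Uqcr11 (1.07) and Uqcrh (0.61) were higher, and the core subunits Uqcrc1 (0.03) and Uqcrc2 (-0.26) were not called.

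In complex V, Atp5b was at 1643 to 2769 CPM in the cytosol (median 2082) and at 1603 to 2806 CPM in the membrane (median 1977), with a log2 difference of -0.06 (SE 0.05, adjusted p = 0.25). The other catalytic subunit, Atp5a1, had -0.35. The 2 called were Atp5j2 (0.65) and Atp5l (0.58), both small subunits of the membrane sector, and levels of Atp5l may be too low, as given above. The 3 genes for the c subunit had 0.30 (Atp5g1), 0.06 (Atp5g2) and 0.17 (Atp5g3), with whole-cell levels of 35.0, 48.0 and 139 CPM per kb.

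Paralogs of complex IV subunits were not alike. Cox6b1 was higher in the membrane (log2 1.23, SE 0.08), and Cox6b2, known from testis, was not called (-0.17, SE 0.08, adjusted p = 0.056). Cox7a2 was higher (1.02, SE 0.09), and Cox7a1, the muscle form, had 0.33 (SE 0.09). Cox4i2 was called (0.91) at a low level, with 0.233 to 1.47 CPM in the cytosol and 0.566 to 2.64 CPM in the membrane, and Ndufa4l2 (0.53) reached at most 2.48 CPM. The differences between paralogs themselves were not tested. The remaining complex IV subunits called higher ran from Cox5a (0.70) through Cox7b (0.81), Cox6c (1.09), Cox8a (1.15), Cox5b (1.23) and Ndufa4 (1.24) to Cox7c (1.35).

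Of the assembly factors, 2 of 21 were called, both higher. Cox16, a membrane protein used in building complex IV, was at 1.18 to 3.02 CPM in the cytosol and 2.12 to 7.23 CPM in the membrane (log2 1.25, SE 0.16, adjusted p = 2.9e-08). Ndufaf2, a late complex I assembly factor, was at 14.9 to 31.0 and 22.8 to 47.0 CPM (log2 0.70, SE 0.08). In both genes the groups overlapped. Other proteins of the inner membrane among the factors were not called, such as Cox10 (-0.09) and Cox15 (-0.32), which make heme a, Cox11 (-0.13), which delivers copper, and Cox18 (0.08), an insertase. In a list of 30 further assembly factors and cytochrome c genes outside the symbol rule, 5 of 29 tested were higher, namely Sco2 (3.03), Ttc19 (1.36), Pet100 (1.25), Timmdc1 (1.10) and Surf1 (0.60), and Lyrm7 (-0.77) and Coa5 (-0.89) were lower (median -0.00). Among other gene families, 5 of 77 mitochondrial ribosomal protein genes were higher and 5 lower (median -0.17), and 4 and 23 of 91 cytosolic ribosomal protein genes (median -0.34).

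The nucleus was then compared with the same cytosolic libraries. Of 102 members tested, 61 were lower in the nucleus (28.1% of all 15078 genes) and 5 were higher (37.1% of all genes). Median log2 differences were -0.54 over subunits (44 lower, 3 higher), -0.74 over assembly factors (15 lower, 1 higher) and 0.08 over all genes. Complex V was low, with 14 of 16 lower and a median of -0.93, as were complex II (3 of 4, -0.92), complex III (6 of 8, -0.66) and complex I (19 of 36, -0.58). In complex IV 2 of 14 were lower and 3 higher (median -0.10, and 0.09 with library size alone), and without 1 replicate 1 (replicate 3 or 4) to 4 (replicate 5 or 6) were lower. Mitochondrial ribosomal protein genes had a median of -0.88 (57 of 77 lower) and cytosolic ones -1.25 (80 of 91 lower).

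These differences varied with the pair of replicates. The subunit median was -0.51 in replicates 1 and 2 (39 lower, 6 higher), -1.32 in replicates 3 and 4 (70 lower, 2 higher) and -0.13 in replicates 5 and 6 (17 lower, 13 higher). These fits tested 78, 77 and 80 subunits. Of all genes, 31.57%, 34.37% and 24.05% were lower in the same fits, and 32.65%, 38.14% and 30.09% were higher. For complex V the median was -0.87, -1.69 and -0.34, and for complex IV 0.08, -0.87 and 0.47. Without replicate 3, whose nuclear libraries stood apart, 57 members were lower and 6 higher (31.5% and 32.2% of all genes). With library size alone, 48 were lower and 7 higher (3166 and 6404 over all genes, against 4236 and 5595 with TMM). The order of complex IV above complex V was present in each pair, while the sign of the complex IV median was not.

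Atp5e, a small subunit of the ATP synthase stalk, was lowest. It ranged from 17.7 to 107 CPM in the nucleus (median 47.6) against 154 to 234 CPM in the cytosol (median 182), without overlap (log2 -1.85, SE 0.17, adjusted p = 6.7e-11). Sdhc ranged from 30.9 to 112.5 CPM in the nucleus (median 59.9), below all cytosolic libraries (log2 -1.59, SE 0.11), and Ndufb10 from 24.1 to 71.3 CPM (median 44.6) against a cytosolic median of 115.5 CPM (log2 -1.48, SE 0.12).

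The 3 highest were Cox6a1, Cox17 and Cox6b2. Cox6a1 was at 58.8 to 409 CPM in the nucleus (median 250.5), above the cytosol in 16 of 16 cultures (log2 2.13, SE 0.16, adjusted p = 1.3e-12), and its lowest value came from replicate 3. Cox17, a copper chaperone of complex IV, was at 17.6 to 32.6 CPM (median 24.1) against 2.51 to 14.8 CPM in the cytosol (log2 1.58, SE 0.16). Its levels may be too low, since reads at several places were not counted, and the part of this in its difference was not tested. Cox6b2 was at 51.5 to 109 CPM (median 68.1) against 25.1 to 51.3 CPM (log2 1.06, SE 0.11). The nuclear and cytosolic groups did not overlap for Cox17 and Cox6b2, and they overlapped for Cox6a1. Cox4i1 (0.98, 14 of 16 cultures) and Atp5s (0.52) were also called higher, though Atp5s kept its call in 6 of 16 fits. Membrane markers moved the same way as Cox6a1 and Cox4i1, since 14 of 14 were higher in the nucleus than in the cytosol (median 2.18, summed level 2796 to 6064 CPM in the nucleus and 514 to 1451 CPM in the cytosol), as were 7 of 7 mitochondrially encoded mRNAs (median 2.76, with 3 of 13 listed at 0 in the nucleus and 4 in the cytosol). The part of membrane material in these levels was not tested.

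**Figure D3:**
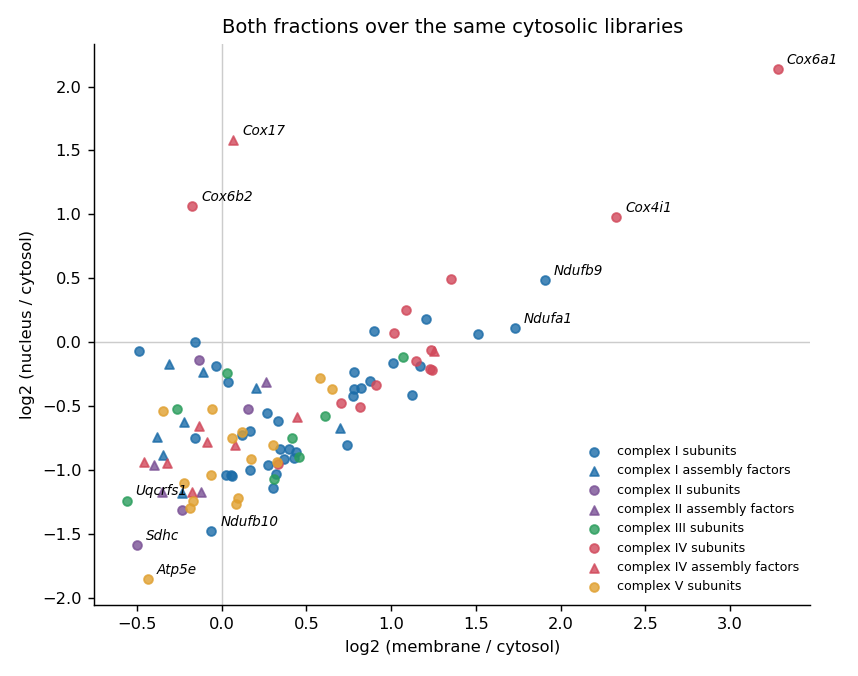
Log2 ratio of membrane over cytosol (x axis) and of nucleus over cytosol (y axis) for each subunit and assembly factor tested, colored by complex, circles for subunits and triangles for assembly factors. Both axes share the cytosolic libraries, so that no correlation is given. Cox6a1 lies at 3.28 and 2.13, and Cox17 (0.07 and 1.58) and Cox6b2 (-0.17 and 1.06) are high only on the y axis.

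Labeling gave the share of new to total RNA, which is the T2C count divided by the T count and by the library's conversion rate. It was read for 100 members that had 400 or more T counts in all libraries of 60 min (12349 genes in all). Subunits had low shares. At 60 min the median over 77 subunits was 0.0746 ± 0.0251 in the nucleus, 0.0420 ± 0.0163 in the cytosol and 0.0361 ± 0.00747 in the membrane (mean ± SD over 4 libraries). For 21 assembly factors it was 0.193 ± 0.0263, 0.117 ± 0.0528 and 0.103 ± 0.00633, and for all genes 0.239, 0.145 and 0.122. Without replicate 3 the nuclear medians were 0.0625 for subunits and 0.189 for assembly factors. The pairs of replicates differed in the cytosol, with 0.0281 in replicates 3 and 4 and 0.0559 in replicates 5 and 6 for subunits, and 0.0715 and 0.162 for assembly factors. The subunit median was below that of assembly factors in 16 of 16 libraries of the nucleus, the cytosol and whole cells (those of replicate 6 among them), and in 15 of 16 of the membrane. Low shares were not particular to subunits. The median ratio of subunits to cytosolic ribosomal protein genes was 0.69 in the nucleus, 0.93 in the cytosol and 0.86 in the membrane (below in 14, 12 and 14 of 16 libraries). To mitochondrial ones it was 0.43, 0.53 and 0.54 (below in 16 of 16 each). In the cytosol, 47 of 77 subunits were below the 10th percentile of all genes and 0 above the 50th, and the median percentile was 8.35 for subunits and 39.2 for assembly factors.

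The shares grew with time in both classes. In the cytosol the subunit median was 0.0114 at 15 min, 0.0127 at 20 min and 0.0147 at 30 min in replicates 1 and 2, 0.0145, 0.0173 and 0.0281 at 20, 40 and 60 min in replicates 3 and 4, and 0.0559 and 0.0967 at 60 and 120 min in replicates 5 and 6. Assembly factors had 0.0159 at 15 min and 0.234 at 120 min, and all genes 0.0158 and 0.370. Conversions that occur without 4sU were not subtracted, and they weigh most on the lowest shares. At 15 min the classes were close in the cytosol, and 1 of the 2 assembly factor medians lay within the range of the subunits.

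**Figure D4:**
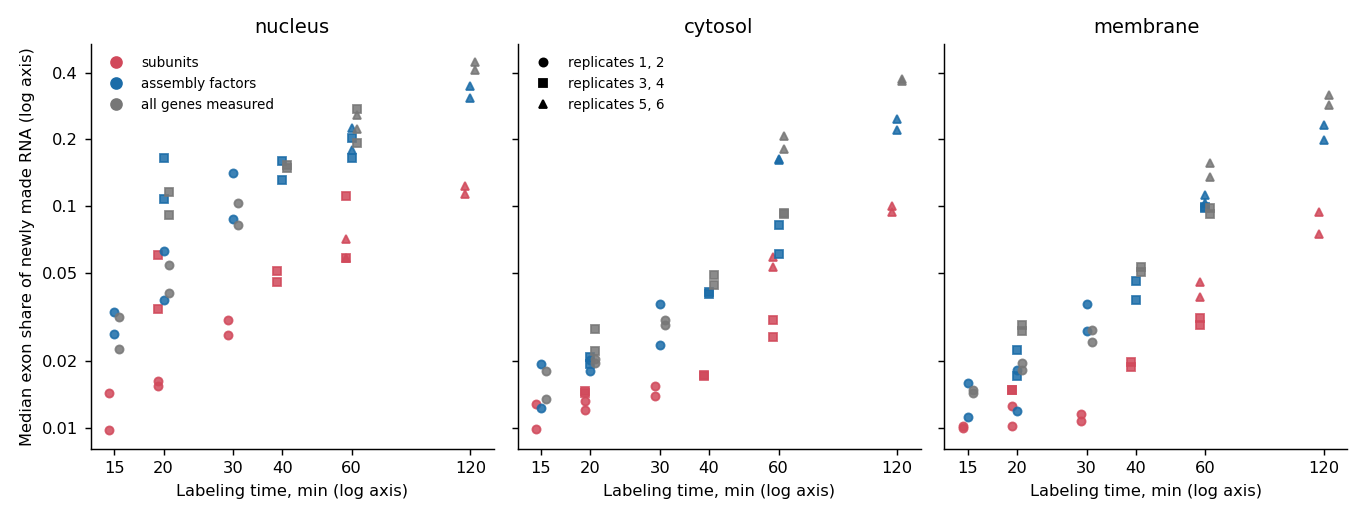
Median exon share of new RNA (y axis, log) against labeling time in min (x axis, log) in nucleus, cytosol and membrane, 1 point per library and class, with symbols for pairs of replicates. Subunits lie below assembly factors in 16 of 16 nuclear and cytosolic and 15 of 16 membrane libraries, and reach 0.0967 against 0.234 in the cytosol at 120 min.

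By complex, median cytosolic shares of subunits at 60 min were 0.0423 ± 0.0159 for complex I, 0.0413 ± 0.0195 for complex II, 0.0496 ± 0.0151 for complex III, 0.0428 ± 0.0199 for complex IV and 0.0390 ± 0.0137 for complex V (SD, n = 4 libraries). The SDs include a shift between pairs of replicates that all complexes shared, so they do not measure differences between complexes. Within each library complex III was highest, with 0.0372, 0.0363, 0.0659 and 0.0589 in replicates 3 to 6. Complex V had 0.0306, 0.0264, 0.0569 and 0.0420. Differences between complexes were not tested. Ndufa12, a matrix arm subunit, had the lowest mean, with 0.0109, 0.0166, 0.0310 and 0.0338 in replicates 3 to 6 (mean 0.0231). Atp5c1, the central stalk of ATP synthase, had 0.0145, 0.0123, 0.0381 and 0.0343, and Atp5mpl, a small subunit of the same complex, 0.0144, 0.0138, 0.0438 and 0.0383. All 3 were higher in replicates 5 and 6 than in replicates 3 and 4.

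Among the assembly factors, Ndufaf4 had the highest cytosolic share, with 0.237, 0.178, 0.464 and 0.392 in replicates 3 to 6 (mean 0.318). Sdhaf1, which helps load iron-sulfur clusters into complex II, had 0.279, 0.189, 0.260 and 0.298, and Cox11 had 0.236, 0.134, 0.339 and 0.312. Of the subunits, Uqcrfs1 had the highest share, with 0.143, 0.106, 0.134 and 0.110 (mean 0.123). It was also the only subunit called lower in the membrane.

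Between fractions, exon shares at 60 min were tested with limma on log2(share + 0.01), a scale that understates changes of low shares. In the nucleus over the cytosol, 19 of 100 members were higher (19.0%, against 35.6% of all 12507 genes) and 0 were lower (2.20% of all genes). The median log2 difference was 0.66 over subunits, 0.75 over assembly factors and 0.69 over all genes. Of the 10 subunits called, 6 belonged to the matrix arm of complex I, among them Ndufs1, Ndufs8 and Ndufv1, and the others were Ndufb10, Cox7c, Cox6b2 and Atp5d. The matrix arm count was 37.5% of its 16 genes, near the 35.6% of all genes, and in the membrane arm 1 of 20 was called. The largest among them were Cox6b2 (log2 1.90, adjusted p = 0.0070), Ndufs8 (1.72) and Ndufs7 (1.60). Assembly factors had 8 of 21 called (38.1%), also near the share of all genes. Among them, Cox20 had 0.454, 0.232, 0.258 and 0.298 in the nucleus and 0.0330, 0.0341, 0.107 and 0.0916 in the cytosol (log2 2.17, SE 0.38, adjusted p = 0.0036), without overlap. Cox16 (1.79), Cox17 (1.49) and Ndufaf6 (1.47) followed. With the replicate as a block 11 calls were left, and Ndufs1, Ndufb10, Cox7c, Atp5d and the assembly factors Cox14, Cox15, Cox18 and Ndufaf7 were no longer called. Without replicate 3 the count was 5 and without replicate 4 it was 6. Of all genes, 29.1% were called with the block, 13.2% without replicate 3 and 11.7% without replicate 4. Cox6b2, Ndufs8, Cox20 and Cox16 kept their calls in all 11 fits. Cox6a1 was not called, with 0.0502, 0.0366, 0.0462 and 0.0342 in the nucleus and 0.0201, 0.0256, 0.0767 and 0.0527 in the cytosol (log2 0.07, SE 0.42).

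In the membrane over the cytosol, 0 of 100 members were higher and 0 lower by limma, where 0.815% and 7.71% of all 12522 genes were called. The median log2 difference was -0.16 over subunits, -0.13 over assembly factors and -0.26 over complex IV, and 15 of 77 subunits were above 0. All 14 membrane markers were lower in the membrane than in the cytosol (median -1.72). Cox6a1, 9.72-fold higher in the membrane by level, had shares of 0.0329, 0.0244, 0.0467 and 0.0332 there, within the range of its cytosolic shares (log2 -0.17, adjusted p = 0.81).

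Introns of the members, like those of most genes, held larger shares of new RNA than their exons. In the nucleus at 20 min, the mean intron share was above the mean exon share in 97 of 97 members. The log2 difference was above 0 in 11063 of all 11282 genes, so that this count says nothing particular of the members. Of the 97 members, 95 were called higher (89.8% of all 11282 genes) and 0 lower (0.275% of all genes). Without replicate 3, 96 were called higher (86.2% of all genes). The median log2 difference was 3.65 over 76 subunits, 2.05 over 19 assembly factors and 1.98 over all genes. By complex it was 3.54 for complex I, 2.81 for complex II, 3.66 for complex III, 4.07 for complex IV and 3.74 for complex V. Cytosolic ribosomal protein genes had 3.58 and mitochondrial ones 2.38. In the membrane arm of complex I the median was 3.90 and in the matrix arm 3.20.

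The median intron share over subunits was 0.220 at 15 min, 0.403 at 20 min and 0.679 at 30 min in replicates 1 and 2, 0.571 at 20 min, 0.939 at 40 min and 0.974 at 60 min in replicates 3 and 4, and 1.02 at 60 min in replicates 5 and 6. A share can pass 1 since it is divided by an estimated rate. Assembly factors had 0.145 at 15 min and 0.784 at 40 min, and all genes 0.134 and 0.704. The subunit median was above that of assembly factors in 15 of 16 nuclear libraries. Genes had a median length of 7.25 kb for subunits and 9.72 kb for assembly factors. The part of gene length in these values was not tested.

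Single members ranged widely. Ndufa1 had the highest intron share at 20 min, with 0.896, 0.813, 1.01 and 0.906 in replicates 1 to 4, against exon shares of 0.0119, 0.00991, 0.0421 and 0.00999 (log2 5.14, SE 0.30, adjusted p = 2.9e-06, limma). Cox8a (mean 0.854) and Ndufb11 (0.840) followed. The lowest intron share belonged to Cox6b2, with 0.107, 0.0897, 0.148 and 0.121, close to its exon shares of 0.120, 0.0481, 0.134 and 0.124 (log2 0.18, SE 0.28, adjusted p = 0.54). Cox16 had 0.0968, 0.115, 0.163 and 0.150 in introns, and Atp5s 0.100, 0.103, 0.209 and 0.176. Cox17 was the other member not called, with intron shares of 0.222, 0.263, 0.621 and 0.398 and exon shares of 0.182, 0.215, 0.425 and 0.333 (log2 0.33, adjusted p = 0.13). Cox6b2 and Cox17 were also among the 3 members highest in the nucleus over the cytosol by level, and both were among the 19 whose exon share was higher in the nucleus. The part of reads lost to pseudogene copies in the values of Cox17 was not tested.

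**Figure D5:**
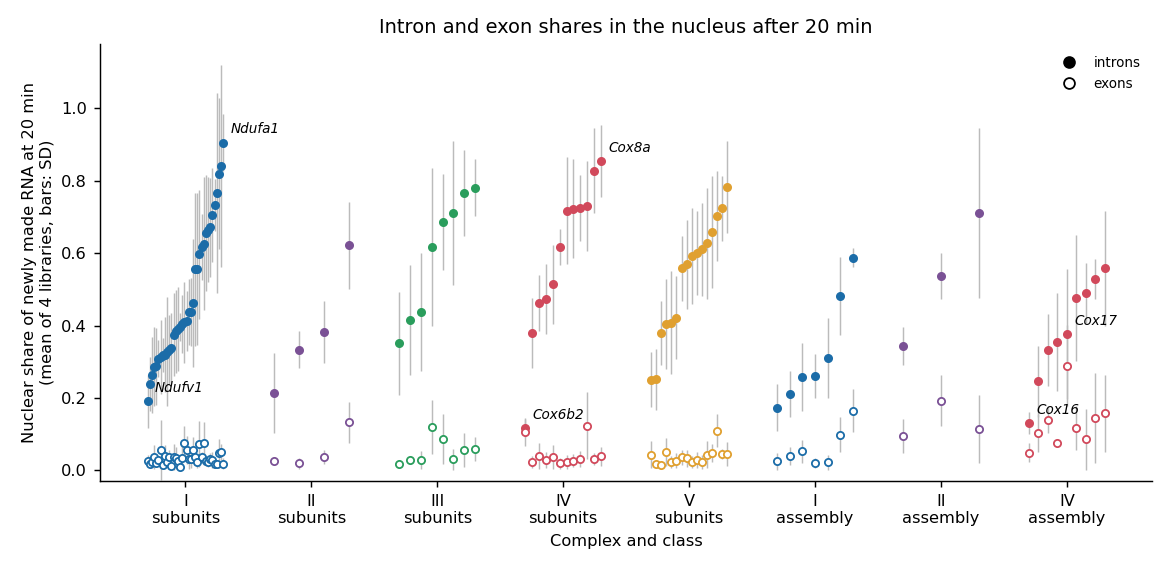
Nuclear share of new RNA at 20 min (y axis) in introns (filled) and exons (open) for each subunit and assembly factor measured in both, by complex and class (x axis). Points are means of 4 libraries with SD, and Ndufa4l2, Cox7a2l and Atp5s are not plotted. The mean of introns lies above that of exons for each gene plotted, and the log2 difference is smallest for Cox6b2 (0.116 and 0.106) and Cox17 (0.376 and 0.289), which were not called.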

How the data were processed

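Poly(A)-selected, strand-specific RNA was sequenced from 72 libraries of E14TG2a cells. The authors aligned reads to GRCm38 with STAR 2.7.6 and counted them per gene with HTSeq 0.11.1. Raw gene counts were deposited. Reads on no gene took 30.7% to 48.8% and reads at several places 19.4% to 34.9%, and both stayed out of library sizes. The authors also deposited counts of T positions and T2C conversions per gene for exons and introns, after leaving out variants, and the conversion rate of each library as a fraction, from a binomial mixture model (2.07% to 8.29% in the libraries used). Their deposited ratio of T2C to T divided by that rate was recomputed and differed by at most 1.21e-13.

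Groups came from the labels, and the 8 libraries of 120 min in replicates 3 and 4, which the study leaves out, were set aside. Levels were tested by the quasi-likelihood test of edgeR 4.0.16 (R 4.3.3) after filterByExpr and TMM scaling, with the labeling condition as a covariate, with DESeq2 1.42.0 as an alternative. Shares were tested with limma 3.58.1 on log2(share + 0.01), with the pair of replicates as a covariate and at least 400 T counts per library. Every p was adjusted over all genes tested (Benjamini-Hochberg). Tested on simulated counts for membrane over cytosol, edgeR made 180 of 180 calls with 1 false call over 14678 genes. For whole cells at 60 over 20 min, edgeR made 149 of 195 with 6 false calls over 16007 genes. The simulated libraries were independent, with the same dispersion for every gene and no shift in scale. The libraries of the study are paired and depend on the scaling, so that these counts do not give the error of the reported fits. How many share differences limma recovers at the spread between these libraries was not tested. Python 3.11.15 was used for tables and coding sequences (Gencode for GRCm38, the deposited counts resting on an earlier release of the same build). Reads carry no molecular identifiers, and depth varied by library, so that errors are given as spread between libraries. Replicates were passaged independently, per the study's methods.

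Cytosol, membrane and nucleus of the same replicate and time come from a sequential extraction of the same cells, so that the numbers pair the libraries. Deviations from the means of the labeling conditions correlated at 0.472 to 0.818 between membrane and cytosol levels (16 pairs), 0.0270 to 0.589 between nucleus and cytosol levels, 0.0753 to 0.119 and 0.108 to 0.153 between exon shares, and 0.0404 to 0.0582 between intron and exon shares (4 pairs each). Fits with a block were alternatives. The block was the culture (replicate and time) for levels between fractions, and the replicate for shares, which were tested at 1 time. No level fit between fractions treated the cultures of 1 replicate as a single unit.

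Genes named are the members with the largest and smallest differences and shares, defining subunits of each complex, paralog sets and the called assembly factors. The members, lists and tests were chosen with earlier results of these data known. Other names, given to list the members of a small count, were chosen after their values were seen.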

Additional observations from a re-analysis of the deposited data

How the results depend on the processing

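With an absolute log2 limit of 1 in place of 0.5, 18 members were higher and 0 lower in the membrane, and with no limit 54 and 26. In replicates 1 and 2 alone 51 were higher (26.4% of all genes). The 2 lower calls became 0 with DESeq2, with all 18 libraries per fraction, and in replicates 1 and 2 or 5 and 6 alone, 6 in replicates 3 and 4 alone and 13 with library size alone. Of all genes, 22.0% were lower in the reported fit, 49.0% with library size alone and 9.08% to 12.5% in the others. Leaving out 1 replicate gave 31 to 42 members higher and 0 to 4 lower (23.2% to 25.0% and 10.0% to 23.5% of all genes). For the nucleus, 8, 3 and 14 were higher in replicates 1 and 2, 3 and 4, and 5 and 6 alone (32.65%, 38.14% and 30.09% of all genes). In replicates 5 and 6 alone, 29 were lower (24.05% of all genes). An absolute log2 limit of 1 gave 3 higher and 23 lower for the nucleus. Leaving out 1 replicate gave 4 to 6 higher and 57 to 71 lower (32.2% to 34.6% and 31.5% to 33.2% of all genes). Fits on another set of libraries also estimated the TMM scale anew, so that libraries and scale changed together. The part of each in these changes was not tested.

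The 19 members with a higher exon share in the nucleus at 60 min became 11 with 100 T counts as the minimum, 36 with 2000, 12 without the pair of replicates, and 5 to 16 without 1 replicate. Calls over all genes moved as well, from 35.6% to 22.8% with 100 T counts, 50.2% with 2000, 25.4% without the pair, and 11.7% to 33.5% without 1 replicate. With the replicate block, which takes up the pairing, 11 members were called (29.1% of all genes). The block by culture gave 33 higher and 3 lower for the membrane and 5 and 61 for the nucleus. The block by replicate gave 95 for introns, and neither moved any other of these counts by more than 1.5 times. Scaled by library size alone, the median log2 ratio of membrane over cytosol was 0.11 for subunits (0.34 with TMM) and -0.37 for assembly factors (-0.13). With T2C and T counts summed over members, the share of assembly factors at 60 min was 0.272 in the nucleus and 0.129 in the membrane. The other alternatives kept each count over all members within 1.5 times and each share within its SD. Counts by class were recomputed after seeing the data. In replicates 1 and 2 alone, 47 subunits were higher in the membrane (30 in all), 22 in complex I (14) and 6 in complex V (2). Complex V had 0 with library size alone and 1 without replicate 1, and assembly factors 1 with library size alone and 4 in either later pair (2 in all). Shares of genes with few T counts, and levels of genes with pseudogene copies, are limited by depth and by unique mapping.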

Other observations

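The lowest nuclear exon shares at 60 min came from small subunits, Ndufa1 (mean 0.0386), Ndufc2 (0.0392) and Uqcr11 (0.0399), all of them higher in the membrane than in the cytosol by level. Among subunits, complex IV had a median nuclear share of 0.0606 ± 0.0202 and the matrix arm of complex I 0.0933 ± 0.0207 (SD, n = 4 libraries). The matrix arm median was above the membrane arm median in 14 of 16 nuclear libraries and below it in 11 of 16 cytosolic libraries. In nuclear introns the matrix arm median was below the membrane arm median in 14 of 16 libraries.

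Sco2, an assembly factor of complex IV outside the symbol rule, had a log2 difference of 3.03 between membrane and cytosol, next to Cox6a1 (3.28) and above Cox4i1 (2.33). Assembly factors of complex IV had a median nuclear share of 0.272 ± 0.0538 at 60 min and those of complex I 0.145 ± 0.0349.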
